A study of Mus musculus with 24 samples.

Results

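The exercise cohort of the series holds 8 mouse heart libraries, 4 from mice given wheel running for 8 weeks and 4 from sedentary mice, among 24 libraries in all. These 8 libraries were divided by their library numbers. The 4 outer libraries carry the numbers 1, 2, 7 and 8 (running replicates 1 and 4, sedentary replicates 1 and 4), and the 4 inner libraries carry 3, 4, 5 and 6 (running replicates 2 and 3, sedentary replicates 2 and 3). Each side therefore held 2 running and 2 sedentary hearts, and running entered the fit as an additive term. The division was chosen from expression values of these same libraries, known from earlier results. The difference between the sides is therefore a description with no test. Tests were run for the running effect, for its difference between the sides, and for libraries outside the cohort. The test of its difference between the sides uses the same chosen division, so its p-values are not free of that choice.

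All hearts came from the strain C57BL/6 and were frozen whole before total RNA was taken, freed of ribosomal RNA and sequenced. The libraries outside the cohort were hearts 2 weeks after transverse aortic constriction (TAC, surgical narrowing of the aorta, which makes the heart pump against a raised pressure; labelled TAC-LVH), hearts 8 weeks after TAC (TAC-HF), and the sham-operated groups Sham-LVH and Sham-HF, with 4 libraries in each. The labels give neither age, sex nor hour of collection, and they do not say what a library number marks. They do not say that the samples of a group came from separate cages or days, so p-values measure the spread between these libraries, which may be technical. In whole-heart RNA, fewer cells of a type and less RNA per cell cannot be told apart.

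The heart reacts to handling, hormones and feeding within a short time through a few transcript programmes. Immediate early genes, such as Fos and Atf3, encode transcription factors and signalling brakes that are switched on without new protein synthesis. Glucocorticoids bind a nuclear receptor that induces genes such as Fkbp5, Tsc22d3 and Zbtb16, and heat shock factors induce chaperones of the Hsp70 and Hsp90 families. The adult heart draws most of its energy from fatty acid oxidation in mitochondria, and the coactivator encoded by Ppargc1a promotes those genes.

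Total estimated counts were 16802939 to 39512101 over the 8 libraries, and both extremes were outer libraries. Mitochondrially encoded genes took 67.8%, 73.6%, 69.9% and 64.6% of the counts of the outer libraries and 62.1%, 66.4%, 62.4% and 65.5% of those of the inner ones, with running replicates given before sedentary ones. The ranges overlapped only through sedentary replicate 4, the outer library numbered 7. Haemoglobin genes took 0.0705% to 0.092% of the other counts in outer libraries and 0.0934% to 0.101% in inner libraries. Genes of the annotation class TEC, unspliced regions whose status is undecided, took 0.185% to 0.213% and 0.146% to 0.188%. On the first principal component, with 30.5% of the variance, outer libraries lay at 31.5, 15.0, 20.5 and 0.483 and inner libraries at -21.7, -7.3, -19.8 and -18.6. The nearest libraries of the sides were sedentary replicate 4 (0.483) and running replicate 3 (-7.3). The part of mitochondrial share, depth and haemoglobin in the differences below was not tested. Myh6, the adult cardiac myosin gene, lay at 9217 to 10690.0 CPM in outer and 10480.0 to 11120.0 CPM in inner libraries. Xist did not pass 1 CPM in any of these 8 libraries. The Y-linked gene Uty lay at 17.7 to 20.8 CPM in outer and 14.8 to 16.9 CPM in inner libraries.

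A gene was counted as different when its fitted difference was at least 1.5-fold (0.585 on the log2 scale) and the 4 outer and 4 inner normalised abundances (CPM, counts scaled to a common library size) did not overlap. Where 4 values are printed for a side, they are those of running replicates 1 and 4 and sedentary replicates 1 and 4 in outer libraries, and of running replicates 2 and 3 and sedentary replicates 2 and 3 in inner libraries. Of 13824 genes tested, 314 were higher in outer libraries, which is 2.27%, and 135 were lower, which is 0.977%. These shares stand beside every count by the rule below, and a gene can stand in several lists. Without the limit on fold, 919 genes (6.65%) lay higher and 773 (5.59%) lower with no overlap. Of the higher genes 80 were at least 2-fold and 8 at least 4-fold apart, and of the lower genes 26 and 1. Of the 314 higher genes 175, and of the 135 lower genes 78, differed by 1.5-fold or more both among running and among sedentary hearts. The rule was applied to these same libraries and fixed the direction in both, so these counts are no separate support. The median log2 difference was 0.80 in the higher genes and -0.80 in the lower genes, and it was -0.00 over all genes tested. All differences are relative to this median gene. With library totals in place of normalisation factors the median of all genes was -0.20, and 98 genes were higher and 426 lower. With fewer libraries the condition of no overlap is easier to pass, so a rise in the counts says nothing by itself about the library left out. Leaving out sedentary replicate 4 gave 515 higher and 227 lower genes. Without both libraries numbered replicate 4 the counts were 768 and 351, and without both numbered replicate 1 they were 349 and 285, both alternatives chosen after seeing the data.

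**Figure D1:**
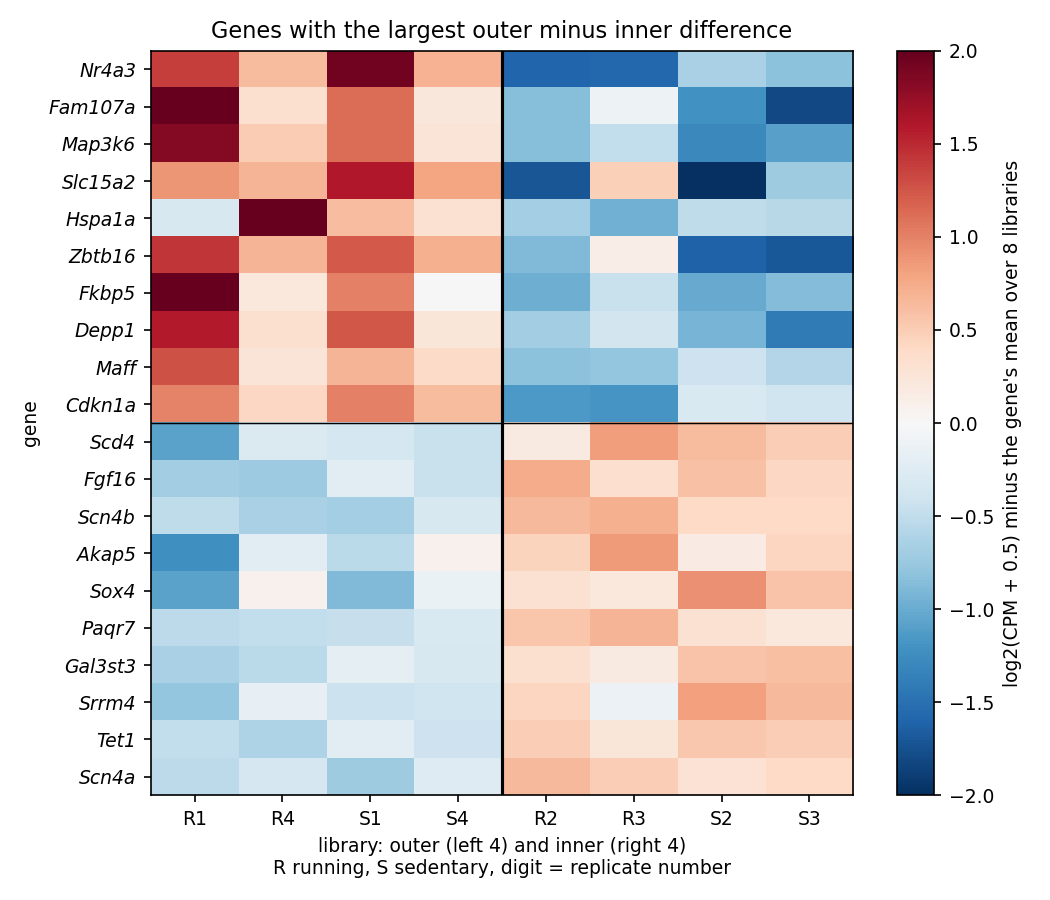
Log2(CPM + 0.5) of the 20 genes with the largest difference, each minus its own mean over the 8 libraries. Columns are libraries (R running, S sedentary, with the replicate number), outer libraries left of the black line and inner ones right of it. The upper 10 genes are higher and the lower 10 lower in all 4 outer libraries, and the size of the difference varies among libraries of a side, as with Hspa1a, which reached 8.40 CPM in running replicate 4. Values beyond 2 in either direction take the end colour.

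The largest difference was that of Nr4a3 (ENSMUSG00000028341), which encodes an orphan nuclear receptor of the early response. In outer libraries Nr4a3 had 9.30 and 5.32 CPM in running and 13.7 and 5.54 CPM in sedentary hearts, against 0.742 and 0.753 CPM in running and 1.87 and 1.61 CPM in sedentary hearts of the inner libraries. Its outer mean was 8.48 ± 3.96 CPM (SD, n = 4) and its inner mean 1.244 ± 0.583 CPM (SD, n = 4), a log2 difference of 2.86, with 3.10 among running and 2.28 among sedentary hearts. Every outer library lay above every inner one. Of the 22 immediate early genes tested, 11 were higher by the rule (50%, beside 2.27% of all genes tested) and none lower. All 22 differences were above 0, and their median was 0.83 (0.98 among running and 0.54 among sedentary hearts). Without running replicate 1 the median was 0.53, without both libraries numbered replicate 1 it was 0.43, and without both numbered replicate 4 it was 1.115. Maff, a small Maf transcription factor, had 5.07, 2.28, 3.21 and 2.52 CPM in outer and 0.813, 0.861, 1.235 and 1.04 CPM in inner libraries. Atf3, a stress-induced transcription factor, had 4.04, 2.32, 4.19 and 2.85 CPM in outer and 0.707, 0.574, 1.192 and 2.07 CPM in inner libraries. On the inner side sedentary replicate 3 was the highest, close under the lowest outer value. Btg2, an early gene that restrains the cell cycle, had 25.1, 17.7, 20.1 and 19.8 CPM in outer libraries and 9.76, 8.18, 10.5 and 11.1 CPM in inner libraries.

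The best known early genes did not separate the sides fully. Fos, a subunit of AP-1, had 3.80, 1.898, 4.16 and 1.37 CPM in outer libraries and 0.389, 0.359, 0.979 and 2.07 CPM in inner ones. Its difference was 2.61 among running and 0.72 among sedentary hearts, and inner sedentary replicate 3 lay above 2 outer libraries. Egr1, a zinc-finger early gene, had 22.9, 5.84, 9.52 and 5.87 CPM in outer and 2.86, 3.19, 7.15 and 8.24 CPM in inner libraries, with a difference of 1.91 among running and -0.04 among sedentary hearts. Its difference over all 8 libraries was 1.1204, and 0.38 without running replicate 1, its highest library. The remaining early genes past the rule were Jun, Junb and Fosl2 of AP-1, the Krüppel-like factors Klf2 and Klf4, the phosphatase gene Dusp1, and Zfp36, whose product destabilises messenger RNA. Their log2 differences ran between 0.63 (Jun) and 1.03 (Zfp36), and that of Fosl2 was 0.41 without running replicate 1. These 7 genes are named because they passed the rule and were chosen after their values were seen. The running test called none of the 22 at an adjusted p under 0.05, and 0 of all 13824 genes tested. It counts the gap between the sides as spread, so it cannot show that running left these genes unchanged. Their median running effect was -0.04.

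Genes induced by glucocorticoids formed the other large group, with 9 of 21 higher (42.9%, beside 2.27% of all genes tested) and none lower. The list shares members with the early genes, such as Dusp1, so the groups are not separate counts. Its median was 0.90 (0.75 among running and 0.83 among sedentary hearts). The median was 0.59 without running replicate 1, 0.38 without both libraries numbered replicate 1 and 1.232 without both numbered replicate 4. As a group the sides overlapped, with a summed CPM of 396 to 942 in outer and 260 to 444 in inner libraries. The group's median log2 level, relative to each gene's mean, was 1.013, -0.012, 0.598 and 0.053 in outer libraries. In inner libraries it was -0.484, 0.095, -0.543 and -0.411. Zbtb16 (ENSMUSG00000066687), a zinc-finger repressor, was 4.11-fold higher. Outer libraries had 151 and 89.4 CPM of Zbtb16 with running and 132 and 91.2 CPM without, and inner libraries had 30.1 and 61.1 CPM with running and 17.9 and 16.8 CPM without. The lowest outer value stood above the highest inner one, which came from running replicate 3. Fkbp5 (ENSMUSG00000024222), a co-chaperone that restrains the glucocorticoid receptor, had 33.1, 8.78, 15.7 and 7.52 CPM in outer libraries and 3.57, 5.38, 3.49 and 3.88 CPM in inner libraries. Running replicate 1 was the highest by far, and the 4 inner values lay close together. Cdkn1a, the cell cycle inhibitor p21 and also a p53 target, had 9.11, 5.88, 9.13 and 6.97 CPM in outer and 1.66, 1.61, 3.41 and 3.16 CPM in inner libraries.

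Other members of the glucocorticoid group separated the sides by smaller gaps or not at all. Mt1, a metallothionein gene that metals also induce, had 34.2, 25.6, 23.6 and 25.2 CPM in outer and 14.8, 21.0, 12.7 and 10.4 CPM in inner libraries. Its neighbour Mt2 had 11.1, 6.83, 7.54 and 4.50 CPM in outer and 2.65, 6.38, 2.13 and 1.1 CPM in inner libraries, where running replicate 3 on the inner side overlapped the outer values. Tsc22d3, which encodes the mediator GILZ, had 56.9, 26.2, 47.4 and 24.5 CPM in outer and 25.02, 31.7, 17.0 and 20.0 CPM in inner libraries, where both inner running libraries overlapped the outer values. Its difference was 0.75, and 0.49 without sedentary replicate 1. Hif3a, a hypoxia-inducible factor subunit, was higher by 1.44 on the log2 scale, at 2.68, 0.664, 1.173 and 0.823 CPM in outer libraries and 0.636, 0.645, 0.383 and 0.311 CPM in inner ones. Without running replicate 1, the highest library, it was 0.90. The lipid-handling gene Angptl4 was the 1 member with a difference below 0 (-0.69), with 0.46 among running and -1.56 among sedentary hearts, and leaving out single libraries moved it between -1.16 and -0.18. The median running effect of the 21 genes was 0.35, and none was called, as was the case for all genes tested.

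**Figure D2:**
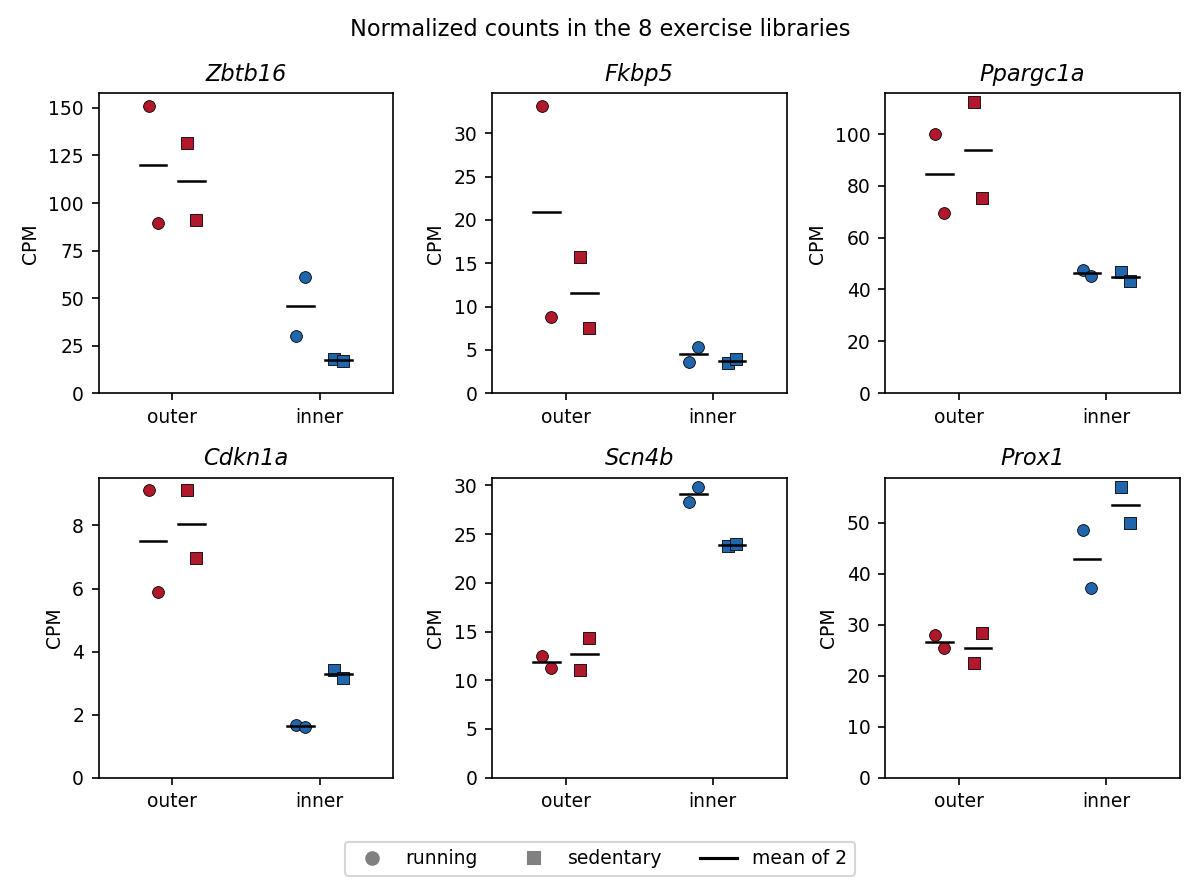
CPM (axis from 0) of 6 genes in the 8 exercise libraries, outer left and inner right in each panel. Circles are running and squares sedentary hearts, and bars are means of 2. Zbtb16, Fkbp5, Ppargc1a and Cdkn1a are higher and Scn4b and Prox1 lower in all 4 outer libraries.

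Promoter sequences from RefSeq (build GRCm38.p6, 250 bases before to 50 after the start of transcription) were available by symbol for 10024 of the genes tested. The full palindromic glucocorticoid response element, with 15 letters, was found in 5 of 267 promoters of genes higher in outer libraries (1.87%), in 0 of 114 promoters of genes lower there, in 0.132% of 12846 promoters of genes tested and in 0.222% of 32851 promoters in all. The palindrome reads the same on both strands. The 5 matches are shown because they stand in genes that differ between the sides. They lie in Map3k6 (a stress-activated kinase), Mt1, Sgk1 (a kinase that controls ion transport), Kcna5 (a potassium channel) and Lrrc52 (a leucine-rich repeat protein), of which Sgk1 and Lrrc52 were chosen after their values were seen. Each window gives 10 bases on either side, 5′ to 3′ on the strand of the gene, with the match in capitals:
Kcna5, chr6:126535591-126535625 (- strand), -60 from the start: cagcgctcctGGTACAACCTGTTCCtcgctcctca
Lrrc52, chr1:167466748-167466782 (- strand), 8 from the start: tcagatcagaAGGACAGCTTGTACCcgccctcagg
Map3k6, chr4:133240626-133240660 (+ strand), -182 from the start: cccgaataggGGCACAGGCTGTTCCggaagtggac
Mt1, chr8:94178984-94179018 (+ strand), -95 from the start: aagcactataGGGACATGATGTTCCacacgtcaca
Sgk1, chr10:21993691-21993725 (+ strand), -189 from the start: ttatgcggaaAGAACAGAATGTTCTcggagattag
A match in these letters is a description and not a site in use. Map3k6 had 25.1, 9.68, 15.0 and 8.07 CPM in outer and 3.46, 4.55, 2.43 and 2.85 CPM in inner libraries, a 4.36-fold difference. Sgk1 had 59.2, 23.7, 40.2 and 27.4 CPM in outer and 15.7, 20.3, 17.5 and 20.9 CPM in inner libraries, a log2 difference of 1.01 that was 0.66 without running replicate 1. Lrrc52 was near the low-count limit at 2.16, 1.33, 1.899 and 1.32 CPM in outer and 1.131, 1.08, 0.724 and 1.295 CPM in inner libraries.

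Among 22 heat shock and cytosolic chaperone genes, 4 were higher (18.2%, beside 2.27% of all genes tested) and none lower. Their median was 0.23, which was 0.02 with library totals and 0.14 without running replicate 4. Hspa1a (ENSMUSG00000091971), which encodes inducible Hsp70, had 1.174, 8.40, 2.71 and 2.09 CPM in outer and 0.813, 0.574, 0.979 and 0.932 CPM in inner libraries. Its near-identical copy Hspa1b had 1.74, 10.4, 3.69 and 2.14 CPM in outer and 1.131, 0.681, 0.766 and 1.81 CPM in inner libraries, with overlap between the sides, and both counts are uncertain because reads can be split between the copies. In both genes running replicate 4 was the highest library by far. Without it the log2 difference of Hspa1a was 1.139, against 2.05 with it, and that of Hspa1b 1.116, against 1.96. Hsp90aa1, the inducible Hsp90, had 48.6, 85.9, 54.6 and 54.5 CPM in outer and 34.4, 32.1, 39.3 and 36.8 CPM in inner libraries. The co-chaperone genes Dnaja1 and Hsph1 were higher by 0.74 and 0.70, and running replicate 4 again had the highest value of each. Without that library Hsph1 differed by 0.43.

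The promoters of both Hsp70 genes are shown because the counts of the pair cannot be separated. They were identical at 296 of 300 bases. Capitals mark the heat shock element core GAANNTTC, its own reverse complement, of which each holds 1 match:
Hspa1a, GRCm38.p6 chr17:34972107-34972406 (- strand): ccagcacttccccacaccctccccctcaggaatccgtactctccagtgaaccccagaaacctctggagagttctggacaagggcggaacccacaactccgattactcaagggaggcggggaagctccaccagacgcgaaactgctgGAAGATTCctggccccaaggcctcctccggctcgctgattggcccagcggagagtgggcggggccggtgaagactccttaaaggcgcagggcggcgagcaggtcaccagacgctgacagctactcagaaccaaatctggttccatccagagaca
Hspa1b, GRCm38.p6 chr17:34959189-34959488 (- strand): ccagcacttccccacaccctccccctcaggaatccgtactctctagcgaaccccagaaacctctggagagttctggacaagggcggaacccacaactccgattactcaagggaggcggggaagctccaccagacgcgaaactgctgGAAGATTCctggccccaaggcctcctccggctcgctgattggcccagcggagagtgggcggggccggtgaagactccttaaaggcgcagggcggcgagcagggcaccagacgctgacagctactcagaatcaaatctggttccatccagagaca
The core was present in 7.86% of all promoters, in 5.72% of promoters of genes tested and in 12 of 24 promoters of this chaperone group.

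Endoplasmic reticulum stress genes showed small differences of one sign. None of 22 passed the rule, 21 were above 0, and the median was 0.20, which was -0.01 with library totals. Herpud1, a component of protein degradation at that membrane, had 93.9, 50.9, 58.2 and 52.6 CPM in outer and 55.2, 60.8, 31.97 and 36.2 CPM in inner libraries, and the sides overlapped. Antioxidant genes ran the other way, with 15 of 22 below 0 and a median of -0.16. Nqo1, a quinone reductase, had 10.8, 11.0, 10.4 and 10.2 CPM in outer libraries and 16.0, 17.8, 14.6 and 13.8 CPM in inner libraries, without overlap but under 1.5-fold. Hmox1, haem oxygenase, was an exception with a difference of 1.44, with its highest value, 13.1 CPM, in running replicate 1 and overlap between the sides. Without that library it was 0.93. Of 15 p53 targets, 2 were higher (13.3%, beside 2.27% of all genes tested), Cdkn1a and Btg2, which were already counted in lists above. The median of the p53 targets was 0.10 (-0.11 with library totals). Among 19 hypoxia response genes none passed the rule (median 0.11, and -0.07 with library totals).

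Genes of fuel oxidation were lower in outer libraries by small and uniform amounts. All 32 fatty acid uptake and oxidation genes had a difference below 0, with a median of -0.27. None reached 1.5-fold, while 19 of the 32 had no overlap between the sides, beside 5.59% of all genes tested that lay lower without overlap. Their summed CPM was 5080 to 5640 in outer and 5920 to 6570 in inner libraries. Fabp3, the fatty acid carrier of heart muscle, had 341, 356, 348 and 399 CPM in outer and 532, 471, 493 and 456 CPM in inner libraries. Mlycd, whose product removes malonyl-CoA and so relieves the block on fatty acid import, had 16.9, 20.2, 18.6 and 20.8 CPM in outer and 24.6, 26.6, 29.6 and 28.2 CPM in inner libraries. Decr1, an auxiliary enzyme for unsaturated fatty acids, had 59.1, 59.8, 59.6 and 68.2 CPM in outer and 93.7, 82.3, 76.8 and 76.8 CPM in inner libraries. In all 3 genes every outer library lay below every inner one.

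The other mitochondrial groups encoded in the nucleus lay on the same side of 0. All 25 tricarboxylic acid cycle genes were below 0 (median -0.20), as were all 61 nuclear respiratory chain genes (median -0.19) and all 24 genes of branched-chain amino acid and ketone breakdown (median -0.20). In these groups 4 of 25, 23 of 61 and 6 of 24 genes lay lower with no overlap, beside the same 5.59% of all genes. Summed CPM of the cycle genes overlapped between the sides, at 4480 to 5150 in outer and 4970 to 5700 in inner libraries. That of the respiratory chain genes also overlapped, at 6540 to 7600 and 7460 to 8490. The amino acid and ketone genes lay apart narrowly, at 948 to 1080 and 1090 to 1300. In each group sedentary replicate 4 was the highest outer library. Without running replicate 2 the medians of the cycle and of the amino acid and ketone genes were both -0.13. Sdhd, a subunit of succinate dehydrogenase, had 64.8, 66.3, 62.4 and 80.2 CPM in outer libraries and 98.3, 83.9, 86.8 and 81.3 CPM in inner ones. Atp5k, a subunit of ATP synthase, had 23.1, 27.6, 23.7 and 23.8 CPM in outer and 35.5, 30.5, 31.1 and 31.5 CPM in inner libraries. The 15 mitochondrially encoded genes did not follow, with 10 above 0 and a median of 0.05 (-0.15 with library totals). Their summed CPM, which the most abundant of them dominate, was 596000 to 927000 in outer and 555000 to 652000 in inner libraries. Among 27 glucose transport and glycolysis genes 22 were below 0, with a median of -0.13 and none past the rule. Of 21 glycogen genes 1 was lower, Ppp1r3d, a glycogen-targeting subunit of protein phosphatase 1, at 3.38, 3.56, 3.44 and 3.90 CPM in outer and 6.40, 5.81, 5.49 and 5.44 CPM in inner libraries.

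The coactivator gene Ppargc1a (ENSMUSG00000029167) was higher in outer libraries, unlike the oxidation genes above. In outer libraries Ppargc1a had 99.9 and 69.6 CPM in running and 112 and 75.3 CPM in sedentary hearts, against 47.5 and 45.1 CPM in running and 46.6 and 43.1 CPM in sedentary hearts of the inner libraries. The 4 inner values lay within 5 CPM of each other and the outer values well above them, a difference of 0.97 on the log2 scale. Pparg, a lipid-sensing nuclear receptor, was the other of 21 regulators past the rule (0.62), and Ppara was higher by 0.41 with overlap. The regulator group as a whole had a median of -0.09. Among 20 PPAR target genes none passed, and 14 were below 0 (median -0.25). Pdk4, a brake on glucose oxidation, had 324, 71.8, 137 and 79.4 CPM in outer and 59.3, 148, 134 and 86.8 CPM in inner libraries, so that running replicate 1 stood apart and the others overlapped. Ucp3 had 23.0, 6.17, 10.7 and 6.86 CPM in outer and 10.2, 23.4, 20.2 and 12.8 CPM in inner libraries, again with overlap.

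Ion channel and cardiac transcription factor genes were mostly lower in outer libraries. Of 22 potassium and sodium channel genes 18 were below 0 (median -0.24), 2 were lower by the rule and 1 was higher. Scn4b (ENSMUSG00000046480), a sodium channel beta subunit, had 12.4, 11.3, 11.1 and 14.3 CPM in outer and 28.4, 29.8, 23.8 and 24.0 CPM in inner libraries, a fold of 0.463 outer over inner. Scn4a, a sodium channel alpha subunit best known from skeletal muscle, had 11.9, 13.6, 10.4 and 14.4 CPM in outer and 27.4, 24.5, 21.1 and 23.0 CPM in inner libraries. In both genes the 4 outer values lay close together and far under the inner ones. Kcna5, which carries a rapid repolarising current, was the higher one, with 12.3, 8.21, 11.4 and 6.97 CPM in outer and 5.69, 6.06, 4.17 and 5.34 CPM in inner libraries. Counting is not stated to use strand, so reads of a gene cannot be told apart from those of genes that overlap it on the opposite strand. Of the genes printed here this holds for Arntl, Bdh1, Ccn2, Cdkn1a, Cebpb, Dbp, Dchs2, Dnaja1, Dusp1, Fabp3, Gal3st3, Hspa1a, Jun, Junb, Lox, Mt2, Myh6, Myh7, Nppa, Nr1d1, Pik3ip1, Prox1, Sox4, Srrm4, Tef, Tnfaip2, Xist and Zfp36. Kcnj5, a subunit of the acetylcholine-gated channel, differed by -0.53 without overlap.

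Of 15 core cardiac transcription factors 13 were below 0 (median -0.23) and 1 passed the rule. Prox1 (ENSMUSG00000010175), a homeobox factor of cardiac and lymphatic cells, had 27.9, 25.4, 22.5 and 28.3 CPM in outer libraries and 48.6, 37.1, 57.0 and 49.9 CPM in inner ones. Irx4, a ventricular homeobox factor, had 3.76, 6.45, 4.69 and 6.31 CPM in outer and 8.73, 6.35, 8.73 and 9.07 CPM in inner libraries, which overlapped narrowly. Gata4 and Mef2c, factors of heart muscle development, differed by -0.45 and -0.43 on the log2 scale. Adult sarcomere genes (20, median -0.10) and calcium handling genes (17, median -0.12) had none past the rule. Of 18 fetal and load-response genes 1 was higher, Ccn2, and none lower (median 0.13, and -0.06 with library totals). Nppa, atrial natriuretic peptide, had 25.5, 31.8, 31.4 and 35.4 CPM in outer and 27.5, 24.1, 43.0 and 21.9 CPM in inner libraries. Nppb and Myh7 differed by 0.17 and -0.14, and Acta1 by -0.34 with its highest value, 258 CPM, in inner sedentary replicate 2. Leaving out single libraries turned each direction: Acta1 moved between -0.67 and 0.20 (positive without sedentary replicate 1 or 2), Nppb between -0.16 and 0.45 (negative without running replicate 3 or 4) and Myh7 between -0.27 and 0.02 (positive without sedentary replicate 2). Dchs2, the cadherin gene in the title of the series, had 0.752, 0.949, 0.754 and 0.659 CPM in outer and 0.919, 0.861, 2.09 and 1.399 CPM in inner libraries with overlap, and sedentary replicate 2 was its highest library. Its difference was -0.71, and -0.44 without that library.

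Several genes with the largest differences stand outside these groups. Fam107a, an actin-binding protein gene, had 13.4, 3.04, 5.59 and 2.80 CPM in outer libraries and 1.06, 2.12, 0.724 and 0.311 CPM in inner libraries. Slc15a2, a peptide transporter gene, had 5.07, 4.37, 8.69 and 4.72 CPM in outer and 0.424, 3.69, 0.256 and 1.35 CPM in inner libraries, with inner running replicate 3 close under the outer range. Its difference of 2.12 was 3.23 without that library. Depp1, a FoxO-induced gene linked to autophagy, had 37.7, 15.5, 29.6 and 14.7 CPM in outer and 7.39, 9.43, 6.22 and 4.30 CPM in inner libraries. In these 3 genes the lowest outer library lay above the highest inner one. On the lower side, Scd4, a heart-expressed fatty acid desaturase, had 0.892, 1.898, 1.79 and 1.65 CPM in outer and 2.83, 4.73, 4.04 and 3.63 CPM in inner libraries. Fgf16, a growth factor made by cardiomyocytes, had 1.32, 1.28, 2.04 and 1.65 CPM in outer and 4.38, 3.19, 3.92 and 3.42 CPM in inner libraries. The other lower genes of this rank were Akap5, which anchors protein kinase A (-1.06), the transcription factor gene Sox4 (-0.998), the membrane progestin receptor gene Paqr7 (-0.99), the sulfotransferase gene Gal3st3 (-0.96), the splicing regulator gene Srrm4 (-0.96) and Tet1, which oxidises methylated cytosine (-0.95). Genes with provisional names included Gm47283 (1.139) and Gm21738 (1.003) on the higher side and Gm29216 (-1.38) and C130023A14Rik (-0.67) on the lower side.

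The counts past the rule in the matrix and fibroblast groups were small. Of 42 matrix genes 2 were higher and none lower, and the median of 0.11 was -0.08 with library totals. These 2 were 4.76% of the list, beside 2.27% of all genes tested that were higher. Lox, which cross-links collagen, had 3.90, 2.94, 4.69 and 4.28 CPM in outer and 1.697, 2.58, 2.21 and 2.07 CPM in inner libraries. Fmod, a collagen-binding proteoglycan gene, had 3.52, 3.18, 3.69 and 2.42 CPM in outer and 1.73, 1.51, 2.21 and 1.97 CPM in inner libraries. Neither gene overlapped between the sides. The fibrillar collagen genes Col1a1 and Col3a1 differed by -0.03 and -0.13 (0.06 for Col3a1 without running replicate 1), and Postn, a gene of activated fibroblasts, by 0.12 (-0.07 with library totals). The 16 resident fibroblast markers had 8 genes on each side of 0 and a median of -0.00. Among 17 activated fibroblast markers 1 was lower and none higher (median 0.16, and -0.03 with library totals and 0.02 without sedentary replicate 1). That gene was Ccn5, a matricellular protein gene, at 2.30, 1.47, 1.93 and 2.47 CPM in outer and 3.96, 3.84, 3.62 and 3.26 CPM in inner libraries. Ccn2 of the same family, in the load-response list, had 40.0, 30.5, 40.2 and 26.0 CPM in outer and 15.0, 19.3, 25.3 and 15.6 CPM in inner libraries.

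Endothelial markers were above 0 in 16 of 18 genes, with a median of 0.26 (0.46 among running and 0.11 among sedentary hearts, and 0.08 with library totals) and none past the rule. Their summed CPM was 896 to 1090 in outer and 773 to 882 in inner libraries. Esam, an adhesion molecule gene of vessels, had 36.5, 28.6, 30.6 and 27.7 CPM in outer and 19.8, 23.2, 21.5 and 18.3 CPM in inner libraries, and Aqp1, a water channel gene, had 182, 138, 135 and 97.9 CPM in outer and 96.5, 116, 70.3 and 83.5 CPM in inner libraries. Pecam1, Cdh5 and Kdr, which define the cell type, differed by 0.45, 0.10 and 0.01, and were chosen after their values were seen. Smooth muscle and pericyte markers had a median of 0.08 (-0.12 with library totals), with 1 of 15 higher, Lmod1 (0.78). Macrophage and monocyte markers had a median of -0.03 with 8 of 20 above 0. Lyve1, a hyaluronan receptor gene of resident macrophages and lymphatic vessels, was the 1 member past the rule. Outer libraries had 17.2 and 11.8 CPM of Lyve1 with running and 11.8 and 9.28 CPM without, and inner libraries had 5.55 and 6.96 CPM with running and 4.56 and 4.97 CPM without. Cd14, a co-receptor for endotoxin, and Cd163, a haemoglobin scavenger receptor gene, differed by 0.85 and 0.75 with overlap between the sides.

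Markers of other cells that a heart sample can hold were few or uneven. Of 18 listed lymphocyte markers only Ighm was tested, and of the neutrophil and mast cell markers Kit and Csf3r. Ighm was lower in outer libraries, at 1.64, 1.61, 1.79 and 1.702 CPM against 2.47, 3.01, 3.53 and 2.85 CPM in inner libraries. All 6 erythroid markers tested were below 0 (median -0.28), with a summed CPM of 235 to 311 in outer and 316 to 346 in inner libraries. Among adipocyte markers 1 of 8 was higher, Pparg. Their median of 0.25 was 0.07 with library totals, 0.08 to 0.44 with single libraries left out (lowest without sedentary replicate 1, highest without running replicate 4), and 0.01 without both libraries numbered replicate 1. Atrial markers had a median of 0.08 (-0.12 with library totals) and 1 of 10 higher, Dkk3 (0.72, and 0.42 without sedentary replicate 1). Schwann cell and neuron markers (6 genes, median 0.25), epicardial markers (4, -0.04), skeletal muscle markers (5, -0.22) and MHC class II genes (7, 0.04; -0.15 with library totals) had none past the rule. The part of these cells in the differences was not tested.

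**Figure D3:**
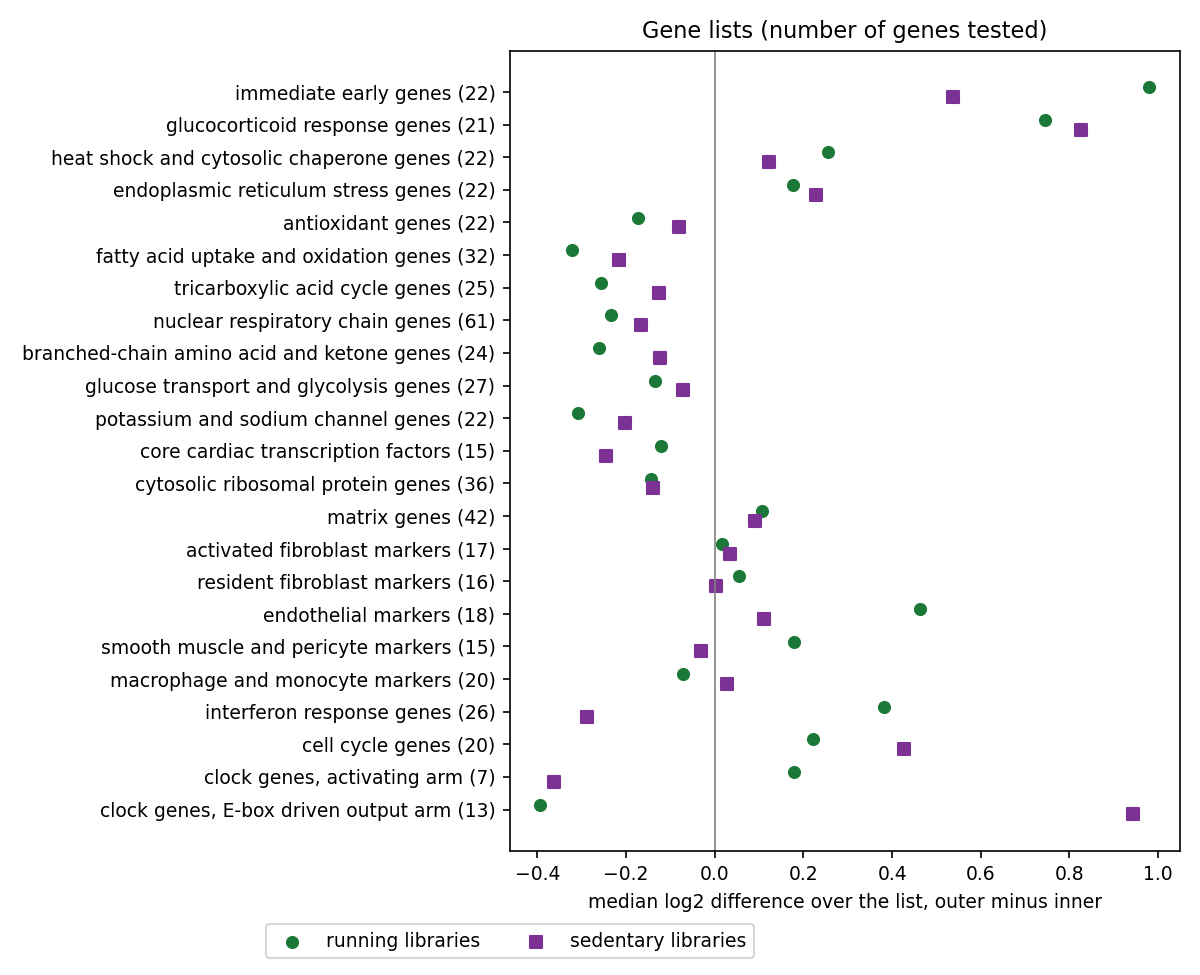
Median log2 difference, outer minus inner, over the genes of 23 lists, computed among running hearts (circles) and among sedentary hearts (squares); the number of genes tested stands in brackets. The immediate early and glucocorticoid lists lie to the right and the 4 lists of fuel oxidation and the respiratory chain encoded in the nucleus to the left of 0 in both, and the clock output, clock activating, interferon, smooth muscle and macrophage lists lie on opposite sides of 0 in running and sedentary hearts.

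Ribosomal protein genes were below 0 in 35 of 36 cases, with a median of -0.15 and none past the rule. Of 8 nuclear long noncoding RNAs 1 was higher, Neat1, the scaffold of paraspeckles, at 942, 1430.0, 1248 and 919 CPM in outer and 537, 644, 499 and 619.7 CPM in inner libraries. Cell cycle genes had 2 of 20 higher and a median of 0.39, which was 0.18 with library totals, 0.23 without running replicate 4 and 0.74 without both libraries numbered replicate 1. The higher genes were the mitotic motor genes Cenpe and Kif11, both at under 2 CPM in every library, with differences of 1.236 and 1.04. Interferon response genes had 1 of 26 higher, Oas2 (0.80, and 0.53 without running replicate 4), and medians of 0.38 among running and -0.29 among sedentary hearts. Their median over all 8 libraries was 0.16, and -0.11 without running replicate 4. Cebpb, a transcription factor gene studied in exercise growth of the mouse heart, was the 1 member past the rule among 25 insulin and growth signalling genes (median 0.04, and -0.15 with library totals). It had 11.4, 6.64, 7.62 and 9.11 CPM in outer and 4.63, 5.92, 4.34 and 2.95 CPM in inner libraries, and its running effect was 0.23 (edgeR adjusted p = 1).

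The running effect was tested over 4 running and 4 sedentary hearts, with no term for the side, so that the gap between the sides counts as spread. The edgeR quasi-likelihood test called 0 of 13824 genes at an adjusted p under 0.05 (0%), and 665 had an unadjusted p under 0.05. DESeq2 called 9, and with the side as an added term edgeR called 1. With the replicate number as a block edgeR called 47, so the count depends on whether same-numbered libraries are taken as pairs. Because of that spread, the test says nothing further about the 314 higher and 135 lower genes. The gene with the smallest p was Pik3ip1, an inhibitor of phosphatidylinositol 3-kinase. Pik3ip1 had 21.0, 18.1, 17.5 and 14.6 CPM in running replicates 1 to 4 and 10.4, 10.9, 8.44 and 8.89 CPM in sedentary replicates 1 to 4. All 4 running values lay above all 4 sedentary ones on both sides (log2 difference 0.87, edgeR adjusted p = 0.126), and its outer minus inner difference was 0.00. The lower gene with the smallest p was Tnfaip2, a tumour necrosis factor-induced gene (-0.56, edgeR adjusted p = 0.386), at a difference between the sides of 0.01.

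The running effect itself differed between the sides for 3 genes (0.0217% of those tested), all with a smaller effect in outer libraries. Of all genes tested, 615 had an unadjusted p under 0.05. Because the division was chosen from these same libraries, the p-values of this paragraph are not free of that choice. Ciart and Tef are output genes of the circadian clock, which are driven through E-boxes by Clock and Arntl. Ciart, a clock repressor gene, had 3.90 and 3.84 CPM with running and 2.88 and 2.42 CPM without in outer libraries and 6.15 and 5.52 CPM with running and 0.809 and 0.881 CPM without in inner libraries. The running effect was 0.54 on the log2 scale in outer and 2.67 in inner libraries (difference -2.26, edgeR adjusted p = 0.0162). Tef, a transcription factor gene of the clock output, had 70.1 and 57.2 CPM with running and 51.7 and 44.3 CPM without in outer and 79.1 and 91.0 CPM with running and 27.2 and 26.4 CPM without in inner libraries (difference -1.26, edgeR adjusted p = 0.0392). In both genes the inner running hearts were highest, the inner sedentary hearts lowest, and the outer hearts between them. The third gene, Xntrpc, is a readthrough locus that shares exons with Trpc2 and Xndc1 on the same strand, so its count is uncertain. It was at 0 in both inner sedentary libraries and at 0.848 CPM and 0.968 CPM in the inner running ones (edgeR adjusted p = 0.0162), and it is 1 of the 314 genes higher in outer libraries. DESeq2 called 12 genes in place of 3. These calls depend on single libraries: leaving out one at a time gave between 0 and 30 calls, and all 3 genes kept theirs without running replicate 1, running replicate 4 or sedentary replicate 4, but none without any of the other 5.

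**Figure D4:**
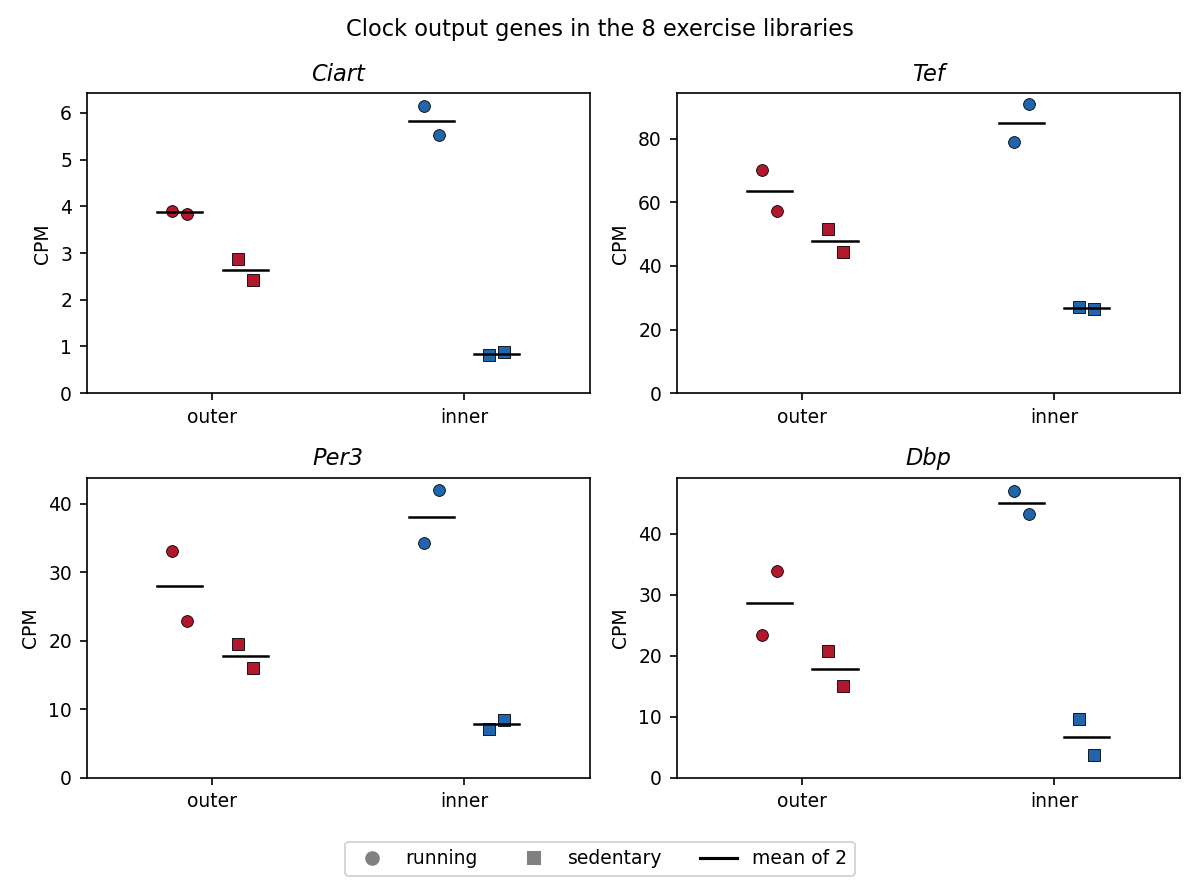
CPM (axis from 0) of 4 clock output genes, outer libraries left and inner right in each panel. Circles are running and squares sedentary hearts, and bars are means of 2. The gap between running and sedentary hearts is wider on the inner side in all 4 genes.

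The E-box letters CACGTG, which are their own reverse complement, occurred in 7.15% of all promoters and in 9.77% of promoters of genes tested. They occurred in 5 of 13 promoters of the clock output genes (38.5%). That list was made of genes driven through E-boxes, so its share is no separate support. The promoters of the 2 called clock genes are shown with these letters in capitals, 3 matches in Ciart and 1 in Tef:
Ciart, GRCm38.p6 chr3:95882179-95882478 (- strand): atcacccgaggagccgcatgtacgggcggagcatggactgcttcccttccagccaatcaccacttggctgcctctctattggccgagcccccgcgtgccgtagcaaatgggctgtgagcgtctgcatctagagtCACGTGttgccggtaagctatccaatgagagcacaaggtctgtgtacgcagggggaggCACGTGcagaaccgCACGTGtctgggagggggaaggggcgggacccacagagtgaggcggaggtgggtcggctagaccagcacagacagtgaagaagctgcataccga
Tef, GRCm38.p6 chr15:81802423-81802722 (+ strand): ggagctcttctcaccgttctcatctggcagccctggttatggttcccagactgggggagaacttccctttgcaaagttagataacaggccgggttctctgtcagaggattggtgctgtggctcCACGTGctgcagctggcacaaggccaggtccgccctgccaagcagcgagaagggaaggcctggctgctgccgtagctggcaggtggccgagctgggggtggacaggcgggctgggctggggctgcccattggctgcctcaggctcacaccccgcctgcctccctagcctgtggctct
In Per3 and Dbp the groups stood in the same order without passing the test. Per3 had 33.0 and 22.9 CPM with running and 19.5 and 16.0 CPM without in outer and 34.2 and 42.0 CPM with running and 7.15 and 8.34 CPM without in inner libraries (edgeR adjusted p = 0.0813). Dbp had 23.4 and 33.9 CPM with running and 20.8 and 15.0 CPM without in outer and 46.9 and 43.2 CPM with running and 9.54 and 3.63 CPM without in inner libraries (edgeR adjusted p = 0.997). Per1 and Per2, period genes that glucocorticoids also induce, differed between the sides by -0.01 and 0.54 among running and by 2.10 and 2.75 among sedentary hearts. Over 13 output genes the median running effect was 0.27 in outer and 1.66 in inner libraries. The activating arm went the other way, with medians of -0.25 and -0.58 over 7 genes. Arntl, its central factor, had 0.798 and 2.52 CPM with running and 3.63 and 4.17 CPM without in outer libraries and 0.742 and 0.323 CPM with running and 7.58 and 9.84 CPM without in inner libraries (edgeR adjusted p = 0.651). Nr1d1, a repressor of Arntl, differed by 0.36 between the sides, with overlap.

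The 16 TAC and sham libraries, which share none with the cohort, were used to ask how the same genes respond to pressure load. At 2 weeks the edgeR quasi-likelihood test called 17.1% of 14224 genes higher and 16.1% lower after TAC, and at 8 weeks 14.9% of 13621 higher and 14.7% lower. Of the 309 genes higher in outer libraries and tested at 2 weeks, 91 rose (29.4%) and 27 fell (8.74%). Of the 134 lower genes, 9 rose (6.72%) and 46 fell (34.3%). At 8 weeks 48 of 297 higher genes rose (16.2%) and 37 fell (12.5%), and 13 of 125 lower genes rose (10.4%) and 32 fell (25.6%). The median TAC effect of the higher genes was 0.22 at 2 weeks and 0.06 at 8 weeks, that of the lower genes -0.37 and -0.36, and that of all genes -0.01 and -0.00.

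The stress groups were counted separately after TAC. Of the 22 immediate early genes 13 rose and none fell 2 weeks after TAC, and 1 rose at 8 weeks. Maff rose by 0.98 on the log2 scale at 2 weeks (edgeR adjusted p = 0.00449), at 3.19 ± 0.714 CPM after TAC and 1.599 ± 0.530 CPM in shams (SD, n = 4 each). Fos rose by 1.64 (edgeR adjusted p = 0.00543), while Nr4a3 gave 0.35 (edgeR adjusted p = 0.586). Of the 21 glucocorticoid response genes 1 rose and 3 fell at 2 weeks, and 1 rose and 1 fell at 8 weeks. Zbtb16 fell by 1.46 at 2 weeks (edgeR adjusted p = 0.0205), at 23.4 ± 12.1 CPM after TAC and 64.2 ± 19.8 CPM in shams (SD, n = 4 each). Fkbp5 gave -0.29 (edgeR adjusted p = 0.661). Cdkn1a rose by 0.78 (edgeR adjusted p = 0.00754). At 8 weeks none of Maff, Fos, Nr4a3, Zbtb16, Fkbp5 and Cdkn1a passed the test, with edgeR adjusted p-values between 0.0887 (Fkbp5) and 0.952 (Fos).

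Most genes of fatty acid oxidation, the tricarboxylic acid cycle, the respiratory chain and the channel group fell 2 weeks after TAC. Of 32 fatty acid genes 31 fell at 2 weeks and 28 at 8 weeks, with medians of -0.97 and -0.49. All 25 tricarboxylic acid cycle genes fell at 2 weeks, and 15 fell and 1 rose at 8 weeks. Of 61 nuclear respiratory chain genes 44 fell at 2 weeks, and 14 fell and 1 rose at 8 weeks. Of 22 channel genes 17 fell and 1 rose at 2 weeks, and 15 fell and 1 rose at 8 weeks. Fabp3 passed the test at neither time, at -0.36 (edgeR adjusted p = 0.142) and 0.27 (edgeR adjusted p = 0.0683), and neither did Atp5k, at -0.51 (edgeR adjusted p = 0.119) and 0.28 (edgeR adjusted p = 0.105). Bdh1, a ketone body enzyme with a difference of -0.44 between the sides, rose by 1.06 at 8 weeks (edgeR adjusted p = 2.13e-05). Scn4b fell by 1.86 at 2 weeks (edgeR adjusted p = 0.000383), at 5.40 ± 2.00 CPM after TAC and 19.5 ± 4.70 CPM in shams (SD, n = 4 each), and gave -0.31 at 8 weeks (edgeR adjusted p = 0.117). Scn4a fell by 1.47 at 2 weeks (edgeR adjusted p = 0.000156) and by 0.72 at 8 weeks (edgeR adjusted p = 0.0206). Ppargc1a, higher in outer libraries, fell after TAC, by 0.99 at 2 weeks (edgeR adjusted p = 1.55e-05) and 1.44 at 8 weeks (edgeR adjusted p = 0.000595). At 2 weeks it stood at 34.6 ± 3.95 CPM after TAC and 69.0 ± 6.51 CPM in shams (SD, n = 4 each). Ribosomal protein genes, lower in outer libraries, rose in 26 of 36 cases at 8 weeks and in 2 at 2 weeks. Matrix genes, of which 2 of 42 passed the rule between the sides, rose in 39 of 42 cases at both times.

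On one scale for all 24 libraries, the genes that differ between the sides also varied outside the cohort. The median log2 level of the 314 higher genes, relative to the mean of the exercise libraries, was 0.22 to 0.53 in outer and -0.45 to -0.31 in inner libraries. It was -0.34 to -0.10 in TAC and -0.42 to -0.33 in sham libraries of the 2-week set, and -0.13 to 0.18 in TAC and -0.17 to 0.17 in sham libraries of the 8-week set. For these higher genes, chosen for being high in outer libraries, no library outside the cohort reached the lowest outer value. The median of the lower genes was -0.433 to -0.296 in outer and 0.313 to 0.418 in inner libraries. In the 8-week set it was -0.483 to -0.34 in TAC and -0.318 to 0.17 in sham libraries. All TAC libraries of that set and sham replicate 1 thus lay within or below the outer range. In the 2-week set the median of the lower genes was -0.293 to 0.032 in TAC and 0.143 to 0.305 in sham libraries. Zbtb16 had 98.6 to 168 CPM on this scale in outer and 18.7 to 67.7 CPM in inner libraries. It had 12.2 to 37.1 CPM in TAC and 43.8 to 83.4 CPM in sham hearts of the 2-week set, and 58.8 to 81.8 CPM and 54.1 to 122 CPM in those of the 8-week set. Nr4a3 lay at 5.86 to 15.1 CPM in outer and 0.823 to 2.09 CPM in inner libraries. In the 8-week set it lay at 5.45 to 17.3 CPM after TAC and 5.97 to 15.2 CPM in shams, overlapping the outer range in both. In the 2-week set it lay at 0.994 to 2.85 CPM after TAC and 0.734 to 3.0 CPM in shams, overlapping the inner range.

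**Figure D5:**
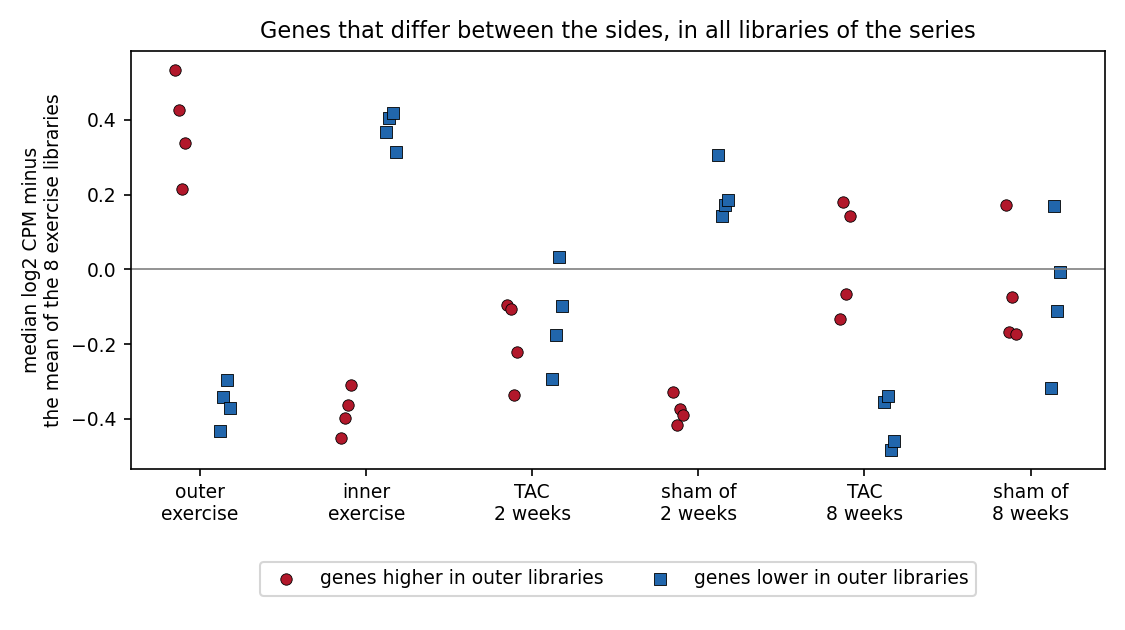
Median log2 CPM of the 314 genes higher (circles) and 135 genes lower (squares) in outer libraries, relative to the mean of the 8 exercise libraries, in each of the 24 libraries of the series. The sides differ by choice of the genes; the circles of the other groups lie at or below 0.18 and the squares of the TAC libraries at 8 weeks between -0.48 and -0.34.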

How the data were processed

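The data were whole-heart RNA libraries depleted of ribosomal RNA. The authors deposited estimated counts per gene for all 24 libraries in a table with 43432 gene identifiers. The submitters' processing notes name FastQC, Salmon and the build mm9, with no versions. Symbols came from GENCODE for 42462 identifiers, and 1 row naming no gene was left out. The members and gene lists were chosen with earlier results of these data known.

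Counts were filtered with edgeR (4.0.16, R 4.3.3) and scaled by TMM, which left 13824 genes in the exercise cohort. They were rounded only for DESeq2 and for the check on duplicate libraries. The outer minus inner difference came from a fit with running as an additive term, without a test. Running, the interaction of running and side, and TAC against sham at 2 and at 8 weeks were tested with edgeR's quasi-likelihood test, two-sided, with Benjamini-Hochberg adjustment over all genes tested. Totals of 16802939 to 39512101 counts set the precision, and genes near 1 CPM rest on few counts. Mitochondrial genes, which took 62.1% to 73.6% of the total, are part of the library size behind CPM. Genes named were the 10 with the largest difference per direction at a mean of at least 2 CPM, up to 2 with provisional names, up to 4 per list, a fixed set of stress, load and clock genes, and up to 5 per direction of the running and interaction tests. Alternatives were DESeq2 (1.42.0), other scalings and filters, a replicate block, a side term and leaving out each library. The fits were tested on simulated data. Libraries of a group differed by more than sampling noise, so none was counted as a duplicate. Coordinates are given only for RefSeq promoters, in their own build.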

Additional observations from a re-analysis of the deposited data

Results flagged for a closer look

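Of 124 groups of 4 libraries examined, 6 held a library far from the other 3. The groups were the outer and the inner libraries, for each gene whose values are printed and for library measures such as total counts. Chance alone does so in about 1 of 20 groups drawn from a single population, while each group here mixed running and sedentary hearts. Running replicate 4 stood above the other outer libraries for Hsp90aa1 (85.9 CPM) and Atp5k (27.6 CPM), and running replicate 1 did so for Herpud1 (93.9 CPM). Sedentary replicate 1 did so for Slc15a2 (8.69 CPM) and sedentary replicate 4 for Decr1 (68.2 CPM). Running replicate 3 stood below the other inner libraries for Irx4 (6.35 CPM).

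The effect of running differed between the sides by the interaction test, edgeR with adjusted p-values, for Ciart (-2.26 on the log2 scale, outer minus inner), Tef (-1.26) and Xntrpc (-8.29). The value of Xntrpc depends on the prior count, because both inner sedentary libraries were at 0, and is no measure of size. Running hearts were higher than sedentary hearts in all inner libraries and in all outer libraries for Ciart and Tef.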

How the results depend on the processing

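The counts between the sides moved with the scaling and with libraries left out. With fewer libraries the condition of no overlap is easier to pass. Against 314 higher and 135 lower genes, library totals gave 98 and 426, a 2-fold limit 80 and 26, and no filter 243 lower genes. Running libraries alone gave 762 and 318, sedentary libraries alone 294 lower genes, and leaving out one library 319 to 515 higher and 175 to 227 lower genes. Leaving out both libraries numbered replicate 4 gave 768 and 351, and both numbered replicate 1 gave 285 lower genes (chosen after seeing the data). Among running libraries alone the median of the clock output genes was -0.37 and that of skeletal muscle markers 0.036, on the other side of 0. The cause was not tested.

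Running called 0 genes, but 9 with DESeq2, 2 without a filter, 1 with the side as a term and 0 to 3 without one library. The interaction called 3 genes, 12 with DESeq2, 80 without a filter and 0 to 30 without one library. Same-numbered libraries correlated in their deviations by 0.40, 0.26, 0.09 and 0.04. The labels do not say whether they were paired, and the main fits took them as unpaired. With the replicate block running called 47 genes and the interaction 35. The TAC counts of 4717 and 4032 genes stayed within 1.5 times under every alternative run. Cells of 2 libraries limit the interaction test, and low counts limit genes under 1 CPM.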
